A study of Homo sapiens with 4 samples.

Results

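The genes described here are 42 genes of the DNA replication fork and of deoxynucleotide synthesis, taken by name from a list. All 42 were among the 43622 genes of the deposited table, and all 42 passed the filter for testing, a mean level of 0.1 TPM or more (a length-corrected share of the transcripts of a library) that left 19932 genes. The cells were PC3, an established line from a human prostate cancer metastasis, and PC3-shp14ARF, the same line carrying a retroviral short hairpin RNA against p14ARF after hygromycin selection. Each was given vehicle (DMSO) or MLN4924 at 1 µM for 3 days, which gave the groups Ctrl (PC3, DMSO), MLN (PC3, MLN4924), shARF (PC3-shp14ARF, DMSO) and Both (PC3-shp14ARF, MLN4924), with 3 replicate libraries each. No control hairpin was named for the PC3 cells, so the hairpin cannot be told apart from the selection and passage of the line that carries it. The replicates were not said to be separate cultures, so p-values measure the spread between these libraries, which may be technical.

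The replisome forms when the CDC45 and GINS proteins join the loaded MCM helicase at an origin, a step that needs MCM10 and the kinase CDC7 with its partner DBF4. Polymerase alpha with its primase subunits lays down primers, the RFC complex loads the PCNA ring there, and polymerases delta and epsilon extend the new strands while RPA coats the exposed single strand. Ribonucleotide reductase, thymidylate synthase and thymidine kinase supply the deoxynucleotides, and many of these genes are known E2F targets that rise before and during S phase. MLN4924 blocks the NEDD8-activating enzyme and with it the cullin-RING ubiquitin ligases, one of which uses DTL (CDT2) as its receptor and recognises substrates such as CDT1 on DNA-bound PCNA.

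CDKN2A, the gene of p14ARF and also of p16INK4a, stood at 177 to 190.1 TPM in Ctrl and at 58.2 to 60.9 TPM in shARF, as its label says, and at 100.4 to 133 TPM in MLN and 41.2 to 54.0 TPM in Both. Replicate libraries correlated with the others of their group at a mean r of 0.975 to 0.980, and genes of the mitochondrial genome took 6.04% to 13.2% of the TPM, with the highest shares in MLN replicate 1 (12.9%) and Both replicate 4 (13.2%). Epithelial KRT18, KRT8, EPCAM and CDH1 were present in all 12 libraries, while the prostate luminal gene KLK3 was listed at 0 in all 12. Of 12 markers of leukocytes, fibroblasts, endothelium and red cells, 8 were below 1 TPM in every library, the others being COL1A1, COL1A2, PECAM1 and HBB. Depth per library is unknown from TPM values.

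The 42 genes together made up 1774 to 1912 TPM in Ctrl, 3822 to 4386 TPM in MLN, 3229 to 3303 TPM in shARF and 4234 to 4382 TPM in Both. Every MLN, shARF and Both library was thus above every Ctrl library, every Both library was above every shARF library, and MLN and Both overlapped. For 39 of the 42 genes Ctrl had the lowest mean of the 4 groups, and for none did it have the highest. The highest mean was in Both for 22 genes, in shARF for 12 and in MLN for 8. These counts of highest and lowest means were not made over all genes tested. In bulk RNA more cells in S phase and more transcript per cell cannot be told apart.

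**Figure D1:**
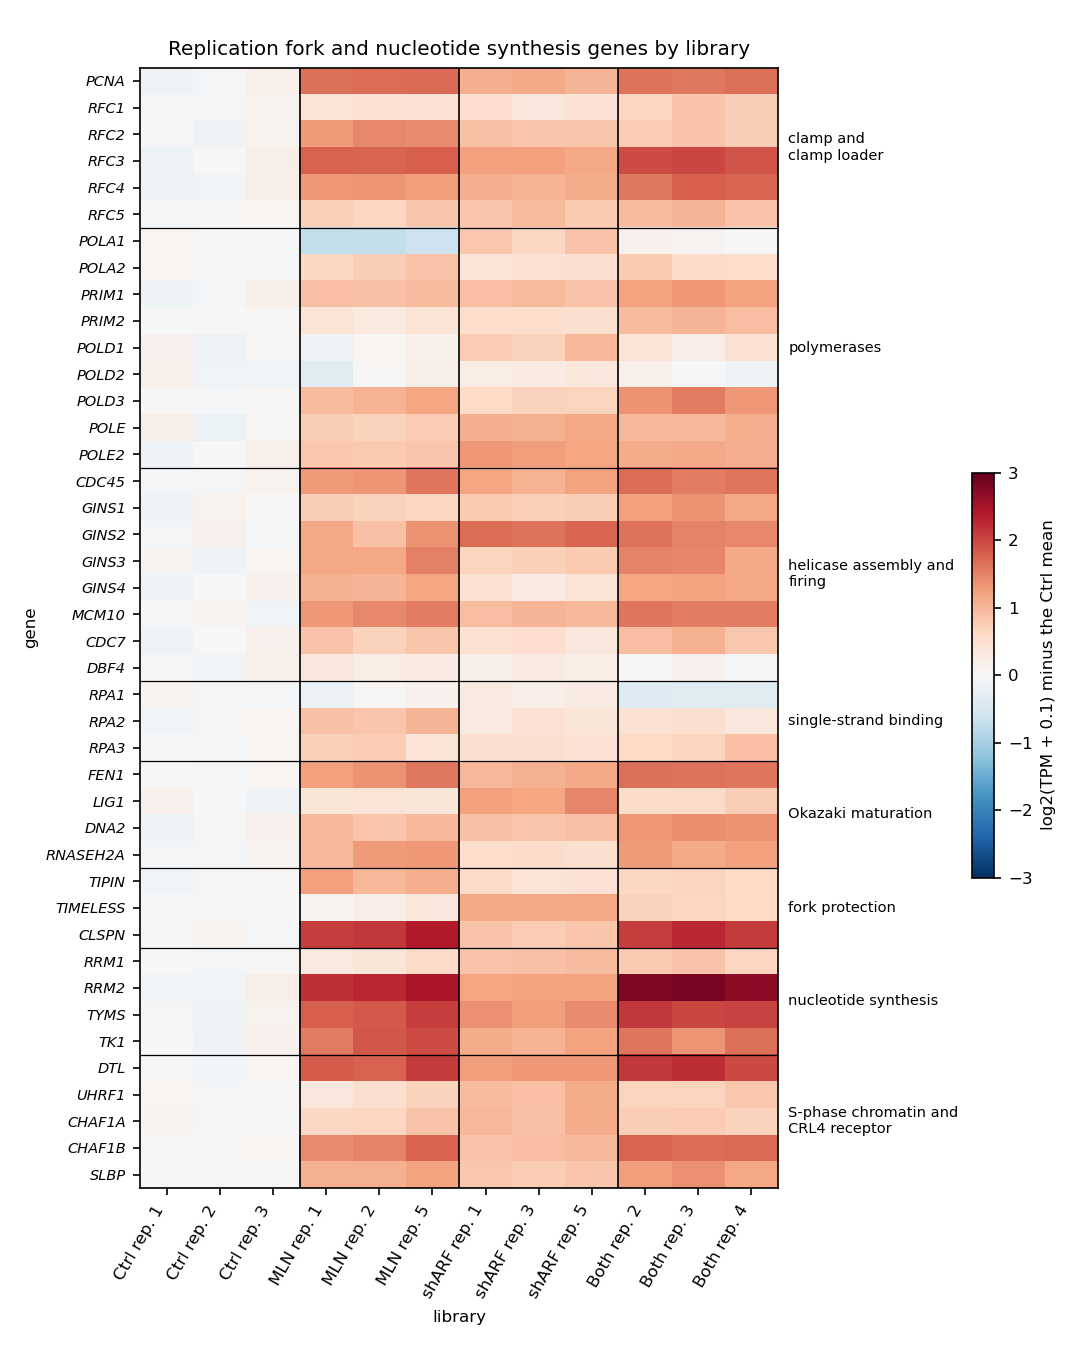
Each gene (vertical axis, grouped by role) in each of the 12 libraries (horizontal axis), coloured by log2(TPM + 0.1) minus the mean of the 3 Ctrl libraries. Most squares of the MLN, shARF and Both columns are red (above Ctrl), while POLA1 is blue in MLN and RPA1 is blue in Both.

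MLN4924 raised most of the set in PC3 cells. In MLN vs Ctrl, 38 of the 42 genes rose and 1 fell at an adjusted p below 0.05 (limma on log2(TPM + 0.1), Benjamini-Hochberg over all genes tested), where 61.6% of all genes tested were called, 32.2% as higher and 29.4% as lower. The MLN4924 response was smaller in PC3-shp14ARF cells and ran in both directions. There, in Both vs shARF, 25 rose and 11 fell, beside 61% of all genes called, 28.3% as higher and 32.8% as lower. Without the drug, in shARF vs Ctrl, 41 rose and none fell, beside 41.4% of all genes called, 21% as higher and 20.4% as lower. Within the treated cells, in Both vs MLN, 14 rose and 5 fell, beside 32.4% of all genes called, 11.8% as higher and 20.6% as lower. The median log2 fold change of the 42 genes was 0.92, 0.38, 0.86 and 0.19 in these comparisons, in that order, against medians over all genes tested of 0.05, −0.04, 0 and −0.08. Changes of single genes are given as log2 fold changes of TPM + 0.1 with the standard error (SE).

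The sliding clamp and its loader rose as a group in PC3 cells, with all 6 genes higher in MLN than in Ctrl. PCNA, the ring that tethers polymerases to DNA, was at 198, 204 and 234 TPM in the Ctrl libraries, 662, 675 and 686 TPM in MLN, 452, 463 and 432 TPM in shARF and 656, 638 and 660.2 TPM in Both. The Both libraries lay just below those of MLN, both lay above shARF and all above Ctrl, and PCNA had the highest level of the 42 genes in Ctrl. The log2 fold change was 1.67 (SE 0.075, adjusted p = 1.6e-05) in MLN vs Ctrl and 0.54 (SE 0.045, adjusted p = 0.000153) in Both vs shARF. RFC3, a subunit of the loader, was at 15.9, 17.4 and 20.1 TPM in Ctrl, 60.4, 59.9 and 61.2 TPM in MLN, 41.95, 41.8 and 39.9 TPM in shARF and 68.8, 70.9 and 65.9 TPM in Both. RFC3 changed by 1.77 (SE 0.089, adjusted p = 2.27e-05) with the drug in PC3 and by 0.73 (SE 0.043, adjusted p = 3.74e-05) in PC3-shp14ARF. RFC2, another loader subunit, behaved differently in the shp14ARF line. It was at 45.4, 42.1 and 48.4 TPM in Ctrl, 110.3, 122 and 121 TPM in MLN, 83.3, 80.5 and 80.5 TPM in shARF and 76.3, 81.7 and 75.9 TPM in Both, so that the shARF and Both libraries overlapped. RFC2 rose by 1.38 in MLN vs Ctrl (adjusted p = 2.42e-05), and its change in Both vs shARF was −0.06 (adjusted p = 0.242, or 0.049 without Both replicate 3). RFC4 and RFC1 rose in both cell populations, by 1.29 and 0.44 in PC3 and by 0.62 and 0.32 in PC3-shp14ARF. RFC5 rose in PC3 (0.73) and had a log2 fold change of 0.10 in PC3-shp14ARF, where its libraries overlapped.

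Among the 9 polymerase genes the catalytic subunit of polymerase alpha stood apart. POLA1 was at 17.9, 16.5 and 17.4 TPM in Ctrl, 10.5, 10.5 and 11.3 TPM in MLN, 30.5, 26.4 and 31.3 TPM in shARF and 18.8, 18.2 and 17.1 TPM in Both. It was lower in every treated library than in every vehicle library of the same line, with log2 fold changes of −0.68 (SE 0.062, adjusted p = 0.000204) in PC3 and −0.70 (SE 0.079, adjusted p = 0.000515) in PC3-shp14ARF, and it was the only one of the 42 genes that fell in both. The 3 other subunits of the same complex rose with the drug in PC3: POLA2, the regulatory subunit, by 0.74, and the primase subunits PRIM1 and PRIM2 by 0.92 and 0.37. In MLN the complex was thus represented by 10.8 ± 0.440 TPM of POLA1 against 34.8 ± 2.76 TPM of POLA2, 57.8 ± 1.24 TPM of PRIM1 and 26.5 ± 1.18 TPM of PRIM2 (SD, n = 3), where Ctrl had 17.3 ± 0.726, 20.8 ± 0.619, 30.7 ± 3.42 and 20.4 ± 0.484 TPM. The subunits of polymerase delta, which extends the lagging strand, also differed. POLD3, an accessory subunit, was at 15.01, 14.4 and 15.4 TPM in Ctrl and 28.99, 30.8 and 33.8 TPM in MLN, and at 22.7, 24.3 and 23.9 TPM in shARF and 37.8, 44.4 and 37.1 TPM in Both, with log2 fold changes of 1.06 (SE 0.071, adjusted p = 6.25e-05) and 0.75 (SE 0.078, adjusted p = 0.00038). The catalytic subunit POLD1 was at 36.2, 29.8 and 34.3 TPM in Ctrl and 29.8, 34.8 and 37.3 TPM in MLN, which overlapped (0.02, adjusted p = 0.892), and fell from 56.8, 54.1 and 66.1 TPM in shARF to 43.8, 38.6 and 45.6 TPM in Both (−0.46, adjusted p = 0.0074). POLD2 overlapped between Ctrl (175 to 209 TPM) and MLN (144 to 209 TPM) as well, with its lowest value in MLN replicate 1, the library with the highest mitochondrial share of its group. POLD2 also fell in PC3-shp14ARF (−0.26, adjusted p = 0.0223), a call lost under 7 of 14 alternative settings (adjusted p up to 0.0843). Among these were the fits without any one of Both replicate 4 (adjusted p = 0.0537), Both replicate 3 (0.0716), shARF replicate 5 (0.076), shARF replicate 1 (0.0553) or shARF replicate 3 (0.0555). For polymerase epsilon, which extends the leading strand, the catalytic subunit POLE rose by 0.73 and POLE2 by 0.80 in PC3, while in PC3-shp14ARF their changes were −0.08 (adjusted p = 0.262) and −0.13 (adjusted p = 0.0401), the second a small fall whose call was lost under 10 of 14 alternative settings.

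All 8 genes of helicase assembly and origin firing rose in PC3 cells. CDC45, which completes the replicative helicase, was at 18.4, 18.03 and 20.3 TPM in Ctrl, 45.9, 47.3 and 57.97 TPM in MLN, 43.3, 39.3 and 44 TPM in shARF and 60.7, 55.4 and 57.4 TPM in Both. The log2 fold change was 1.40 (SE 0.10, adjusted p = 8.78e-05) in PC3 and 0.45 (SE 0.06, adjusted p = 0.001) in PC3-shp14ARF. MCM10, which activates the helicase, was among the least abundant of the set, at 3.78, 3.98 and 3.51 TPM in Ctrl, 9.33, 10.4 and 11 TPM in MLN, 7.22, 7.75 and 7.42 TPM in shARF and 11.5, 11.1 and 11.1 TPM in Both. It changed by 1.42 (SE 0.096, adjusted p = 6.47e-05) and 0.59 (SE 0.057, adjusted p = 0.000273). The 4 subunits of the GINS complex did not move as one. GINS4 rose in both populations, by 1.09 (SE 0.083, adjusted p = 9.75e-05) and 0.81 (SE 0.062, adjusted p = 9.95e-05), and so did GINS1 (0.69 and 0.50) and GINS3 (1.28 and 0.64). GINS2 was at 16.3, 18.7 and 16.3 TPM in Ctrl and 38.4, 31.4 and 43.7 TPM in MLN, but at 55.1, 53.5 and 57.3 TPM in shARF and 52.7, 47.97 and 46.6 TPM in Both. It rose by 1.13 in PC3 and fell in PC3-shp14ARF (−0.17, adjusted p = 0.0414), a small fall whose call was lost under 10 of 14 alternative settings. The kinase CDC7 rose in both populations (0.79 and 0.51), while its activating partner DBF4 rose slightly in PC3 (0.27, adjusted p = 0.023) and fell slightly in PC3-shp14ARF (−0.17, adjusted p = 0.0394). These DBF4 calls depended on the setting. The first was lost under 5 of 15 alternative settings and the second under 10 of 14 (adjusted p up to 0.219). Among these, the first was lost without MLN replicate 1 (adjusted p = 0.072), MLN replicate 5 (0.0568), Ctrl replicate 1 (0.073) or Ctrl replicate 2 (0.0719). The second was lost without Both replicate 4 (0.0862), Both replicate 2 (0.105) or any shARF replicate (0.067 to 0.115), among others.

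The 3 subunits of RPA, the single-strand binding complex, were called differently, and no test compared them with each other. RPA1, the large subunit that makes most of the DNA contacts, was at 77.2, 70.1 and 71.4 TPM in Ctrl and 64.8, 75.1 and 79.4 TPM in MLN, which overlapped, and at 88.3, 83.8 and 86.4 TPM in shARF and 55.3, 56.97 and 56.2 TPM in Both. All Both libraries were below those of every other group, and RPA1 was the only one of the 42 genes with its lowest mean in Both. The log2 fold change was −0.62 (SE 0.035, adjusted p = 3.18e-05) in Both vs shARF and 0.00 in MLN vs Ctrl (adjusted p = 0.998). RPA2 was at 138, 149 and 151 TPM in Ctrl, 266, 259 and 296 TPM in MLN, 175, 195 and 186 TPM in shARF and 199.95, 202 and 184 TPM in Both. It rose by 0.91 (SE 0.069, adjusted p = 9.72e-05) in PC3, while shARF and Both overlapped (0.08, adjusted p = 0.307). RPA3, the smallest subunit, rose by 0.63 (SE 0.11, adjusted p = 0.0028) in PC3 and by 0.26 (SE 0.086, adjusted p = 0.0417) in PC3-shp14ARF. The second call was lost under 6 of 14 alternative settings, among them without Both replicate 3 (adjusted p = 0.0665) or any shARF replicate (0.0943 to 0.117).

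Of the 4 genes that process Okazaki fragments, 3 rose in both populations and the ligase rose in one and fell in the other. FEN1, the flap endonuclease, was at 84.1, 80.7 and 87.7 TPM in Ctrl, 196, 214 and 250.3 TPM in MLN, 167, 176 and 186 TPM in shARF and 264, 259 and 257 TPM in Both, with log2 fold changes of 1.38 (SE 0.095, adjusted p = 6.87e-05) and 0.56 (SE 0.049, adjusted p = 0.000179). LIG1, the ligase that seals the fragments, was at 5.75, 5.21 and 4.90 TPM in Ctrl and 6.80, 6.93 and 6.79 TPM in MLN, and at 12.5, 12.2 and 14.8 TPM in shARF and 7.76, 7.88 and 8.93 TPM in Both. The shARF libraries were thus above all others and the drug separated the groups in opposite directions, with changes of 0.37 (SE 0.087, adjusted p = 0.011) in PC3 and −0.68 (SE 0.10, adjusted p = 0.00173) in PC3-shp14ARF. DNA2, a nuclease and helicase for long flaps, rose by 0.93 (SE 0.089, adjusted p = 0.000246) and 0.48 (SE 0.041, adjusted p = 0.00017). RNASEH2A, the catalytic subunit of the enzyme that removes ribonucleotides from DNA, rose by 1.19 (SE 0.097, adjusted p = 0.000131) and 0.69 (SE 0.048, adjusted p = 7.24e-05), but 53.3% of its annotated exonic bases are shared with THSD8 on the same strand, a gene that is no row of the table.

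The fork protection genes held both the second largest rise of the set and one of its weakest. CLSPN, or claspin, which carries the checkpoint signal from stalled forks to CHK1, was at 4.19, 4.56 and 4.13 TPM in Ctrl, 18.3, 18.98 and 22.8 TPM in MLN, 7.80, 7.29 and 7.68 TPM in shARF and 18.5, 20.8 and 18.8 TPM in Both. The MLN and Both libraries overlapped and were all above those of shARF, which were above Ctrl. CLSPN changed by 2.19 (SE 0.10, adjusted p = 1.87e-05) in PC3 and by 1.34 (SE 0.067, adjusted p = 2.12e-05) in PC3-shp14ARF. TIMELESS and TIPIN, which form a heterodimer at the fork, differed from each other. TIPIN was at 13.04, 14.3 and 14.3 TPM in Ctrl, 32.6, 27.6 and 29.5 TPM in MLN, 20.3, 18.3 and 18.8 TPM in shARF and 21.4, 22.1 and 20.99 TPM in Both. TIMELESS was at 22.1, 21.4 and 21.99 TPM in Ctrl, 23.2, 25.1 and 27.8 TPM in MLN, 48.4, 48.2 and 49.2 TPM in shARF and 35.5, 33.9 and 33.1 TPM in Both. TIPIN was thus highest in MLN and TIMELESS highest in shARF, without overlap with the other groups. TIPIN rose by 1.10 (SE 0.079, adjusted p = 8.13e-05) in PC3 and by 0.17 (SE 0.055, adjusted p = 0.0394) in PC3-shp14ARF. TIMELESS changed in PC3-shp14ARF by −0.51 (SE 0.039, adjusted p = 0.000106), and its change of 0.21 in PC3 (adjusted p = 0.0457) lost its call without MLN replicate 2 (adjusted p = 0.101), MLN replicate 5 (0.0805) or any Ctrl replicate (0.0901 to 0.119). The small rise of TIPIN in PC3-shp14ARF lost its call without any Both replicate (adjusted p from 0.0554 to 0.0959), shARF replicate 5 (0.104) or shARF replicate 3 (0.107), and 21.1% of the exonic bases of TIPIN lie in the pseudogene RPL9P25.

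RRM2 of deoxynucleotide synthesis rose most of the 42 genes with the drug, in both populations. RRM2, the regulated small subunit of ribonucleotide reductase, was at 59.97, 59.5 and 71.5 TPM in Ctrl, 289.7, 307 and 342 TPM in MLN, 145, 147 and 147 TPM in shARF and 439, 458 and 407 TPM in Both. The 4 groups did not overlap, and Both was above MLN. RRM2 rose 4.91-fold on the scale of TPM + 0.1 in PC3, or 2.30 (SE 0.097, adjusted p = 1.35e-05) as log2, and 2.97-fold, or 1.57 (SE 0.051, adjusted p = 5.43e-06), in PC3-shp14ARF. RRM1, the large subunit, was at 65.7, 65 and 68.05 TPM in Ctrl, 81.3, 85.8 and 98.9 TPM in MLN, 121, 122 and 128 TPM in shARF and 115, 119.9 and 104 TPM in Both. It rose by 0.42 (SE 0.079, adjusted p = 0.00448) in PC3, and its log2 fold change in PC3-shp14ARF was −0.13 (adjusted p = 0.11). Between these subunits the order of the levels was close in Ctrl, with 66.2 ± 1.60 TPM of RRM1 and 63.7 ± 6.79 TPM of RRM2 (SD, n = 3, ranges overlapping), while in Both RRM2 stood at 435 ± 25.7 TPM against 113 ± 7.95 TPM of RRM1. TYMS, thymidylate synthase, was at 69.3, 62.6 and 72.8 TPM in Ctrl, 236, 244 and 287 TPM in MLN, 177, 163 and 181 TPM in shARF and 296, 275 and 277 TPM in Both. TYMS rose by 1.90 (SE 0.095, adjusted p = 2.27e-05) and 0.70 (SE 0.057, adjusted p = 0.000128) with the drug. It shares 39.9% of its exonic bases with ENOSF1 on the opposite strand, a gene that averaged 10.5 TPM, and whether counting used strand is not given in the sources used here. TK1, the cytosolic thymidine kinase of the salvage route, was at 87.9, 79.7 and 94.7 TPM in Ctrl, 255, 315 and 341 TPM in MLN, 188, 179 and 200.2 TPM in shARF and 267, 220.02 and 274 TPM in Both, with log2 fold changes of 1.79 (SE 0.12, adjusted p = 6.77e-05) and 0.42 (SE 0.095, adjusted p = 0.0104).

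Among the genes of S-phase chromatin and of the CRL4 receptor, DTL rose most. DTL was at 22.9, 21.1 and 23.2 TPM in Ctrl, 79.2, 76.7 and 95.6 TPM in MLN, 53.3, 55.6 and 55.4 TPM in shARF and 97.3, 104 and 89.2 TPM in Both. The log2 fold change was 1.89 (SE 0.095, adjusted p = 2.23e-05) in PC3 and 0.82 (SE 0.063, adjusted p = 0.000105) in PC3-shp14ARF. The subunits of the CAF-1 histone chaperone, which places histones on new DNA behind PCNA, differed. CHAF1B was at 10.8, 11.1 and 11.5 TPM in Ctrl, 29.9, 31.7 and 38.07 TPM in MLN, 20.5, 21.3 and 21.9 TPM in shARF and 37.5, 36 and 36.4 TPM in Both, and rose by 1.56 (SE 0.098, adjusted p = 4.9e-05) and 0.79 (SE 0.042, adjusted p = 2.77e-05). CHAF1A was at 21.2, 19.03 and 19.8 TPM in Ctrl and 30.5, 31.4 and 36.4 TPM in MLN, and at 40.1, 36.9 and 43.7 TPM in shARF and 33.3, 34.2 and 32.1 TPM in Both. It rose by 0.71 (SE 0.084, adjusted p = 0.000616) in PC3 and fell in PC3-shp14ARF (−0.27, adjusted p = 0.0148), where the adjusted p was 0.051 without Both replicate 4 and 0.05001 without shARF replicate 1. SLBP, which binds the stem-loop of histone mRNA, rose by 1.11 (SE 0.05, adjusted p = 1.6e-05) and 0.46 (SE 0.063, adjusted p = 0.00111). UHRF1, which guides maintenance methylation at the fork, rose in PC3 (0.51) and fell in PC3-shp14ARF (−0.27, adjusted p = 0.0204). The second call was lost under 4 of 14 alternative settings (adjusted p up to 0.0928), among them without Both replicate 3 (adjusted p = 0.0693) or Both replicate 2 (0.071).

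**Figure D2:**
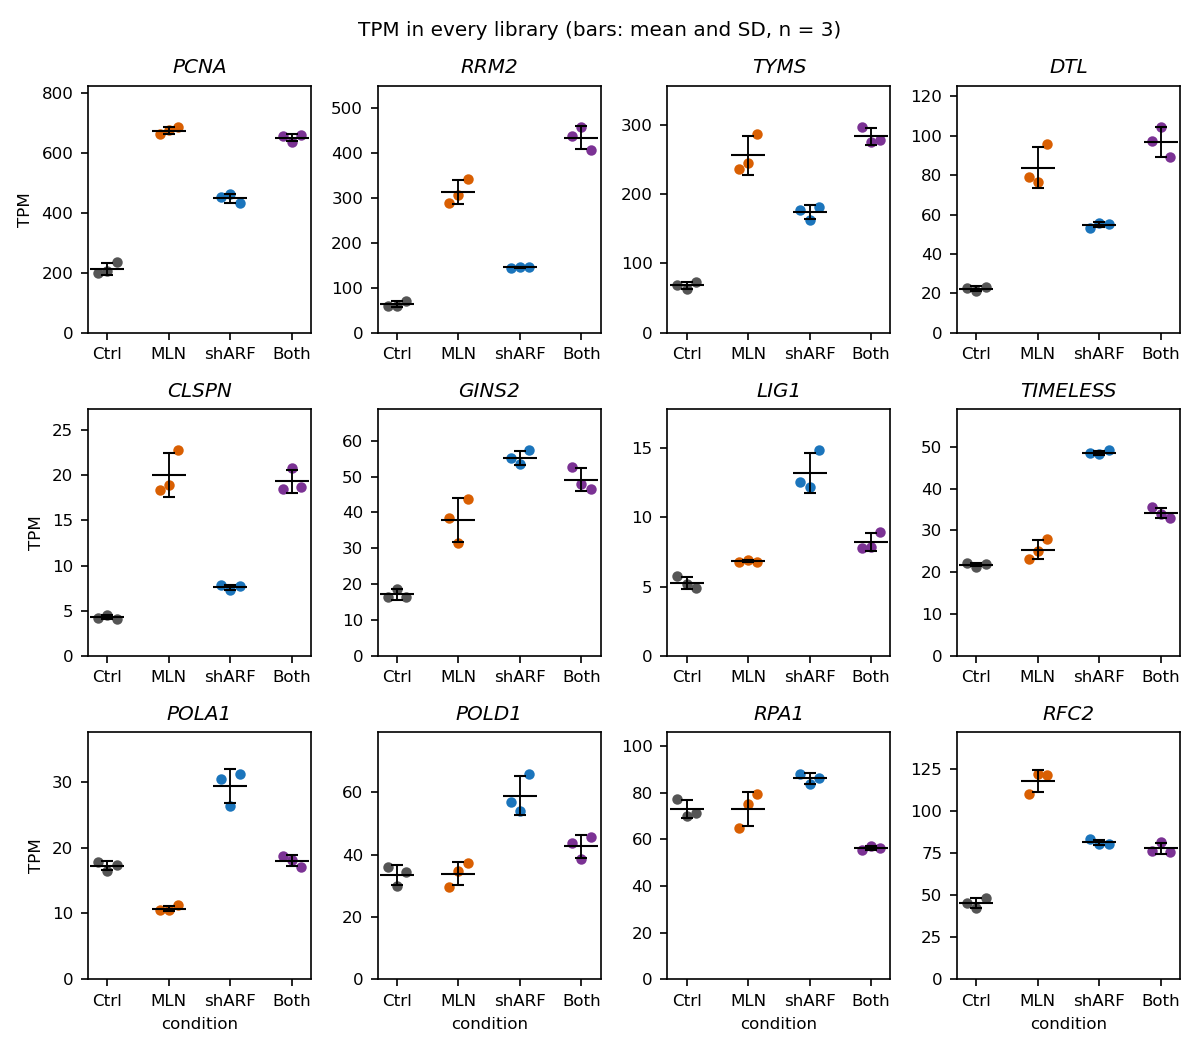
TPM (vertical axis, from 0, its own scale in each panel) of 12 genes in the 4 conditions (horizontal axis), with a point for each library and bars for the mean and SD of 3 libraries. RRM2, TYMS and DTL are lowest in Ctrl and highest in Both, LIG1, TIMELESS and POLD1 are highest in shARF, and POLA1 is lowest in MLN.

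Stretches of 5 promoters are shown because their genes are examples of different courses under MLN4924: PCNA and TYMS rose in both populations, GINS2 and CHAF1A rose in PC3 and were called lower in PC3-shp14ARF, calls that depended on the setting, and POLA1 fell in both. The 9 genes called in only one of the populations are not among them. Only promoters with the E2F core upstream of the start site and outside annotated exons could be chosen. Each stretch, that of POLA1 included, thus holds the core by selection. The sequences are from RefSeq (GRCh38.p14), 5′ to 3′ on the strand of the gene, upstream of its start site and outside annotated exons. Capitals mark the core of the E2F motif on either strand, in the form TTCCCGC, the form TTCGCGC, the form TTGCCGC or the form TTGGCGC.
PCNA, chr20:5126630-5126726, minus strand: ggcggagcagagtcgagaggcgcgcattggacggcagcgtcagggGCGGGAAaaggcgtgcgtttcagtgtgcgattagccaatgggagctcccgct
TYMS, chr18:657598-657652, plus strand: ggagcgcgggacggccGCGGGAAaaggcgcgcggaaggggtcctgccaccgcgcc
GINS2, chr16:85688955-85689030, minus strand: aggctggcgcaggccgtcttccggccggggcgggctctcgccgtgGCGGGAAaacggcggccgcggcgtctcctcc
CHAF1A, chr19:4402558-4402639, plus strand: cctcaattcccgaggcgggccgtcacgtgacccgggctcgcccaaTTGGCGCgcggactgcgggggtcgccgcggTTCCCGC
POLA1, chrX:24693736-24693832, plus strand: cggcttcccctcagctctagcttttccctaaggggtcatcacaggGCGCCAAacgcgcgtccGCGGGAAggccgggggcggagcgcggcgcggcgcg
Of the 42 genes, 37 had a promoter of 300 bases in the RefSeq set (250 before to 50 after the start). The E2F core was in 25 of these 37 (67.6%), against 19.2% of the promoters of genes tested and 13.1% of all promoters. CCAAT on either strand was in 56.8%, against 36.8% and 35.7%, and TTGGCGC can overlap CCAAT, as in CHAF1A. The cell cycle homology letters TTTGAA or TTCGAA, known from G2/M genes, were in 5.41%, against 11.9% and 16.6%. RRM2 held no E2F core in this window and CCAAT at 3 places. A match of letters is a description, and the POLA1 stretch, from the gene that fell with the drug, holds the core at 2 places.

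In PC3 cells 20 of the 42 genes rose by more than 1 on the log2 scale, beside 15.6% of all genes tested, and RRM2 and CLSPN rose by more than 2, beside 6.15%. The 38 genes that rose were those whose MLN libraries all lay above the Ctrl libraries, which held for 34.6% of all genes tested. The clamp and clamp loader (6 of 6), helicase assembly and firing (8 of 8), Okazaki maturation (4 of 4), fork protection (3 of 3), nucleotide synthesis (4 of 4) and S-phase chromatin (5 of 5) rose in full, the polymerases in 6 of 9 and single-strand binding in 2 of 3. With each library left out in turn, between 36 and 37 genes rose and POLA1 remained the 1 gene that fell.

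In PC3-shp14ARF cells RRM2 and CLSPN alone rose by more than 1, where 13% of all genes tested did. The 25 genes that rose there had all risen in PC3. The 11 that fell were POLA1, LIG1, RPA1, TIMELESS, POLD1, CHAF1A, UHRF1, POLD2, GINS2, DBF4 and POLE2, and of these 7 had risen in PC3 (CHAF1A, DBF4, GINS2, LIG1, POLE2, TIMELESS and UHRF1). The 6 not called were POLA2, POLE, RFC2, RFC5, RPA2 and RRM1, all of which had risen in PC3. The split depended on how libraries were scaled, since median-of-ratios scaling gave 28 higher and 6 lower (82.4% of the calls higher, in place of 69.4%). Without the mitochondrial genes, a setting chosen after seeing the data, it was 26 and 7 (78.8%). POLA1, LIG1, RPA1, TIMELESS and POLD1 were called lower under all 14 alternative settings, with log2 fold changes of −0.70, −0.68, −0.62, −0.51 and −0.46 as fitted here. The number lower was 6 without Both replicate 4, 6 without shARF replicate 1 and 7 without shARF replicate 3.

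p14ARF depletion without the drug went with higher levels throughout the set. In shARF vs Ctrl every shARF library lay above every Ctrl library for all 42 genes, which held for 27.3% of all genes tested. DBF4 alone was not called (0.22, adjusted p = 0.0606, or 0.01 without Ctrl replicate 3). By more than 1 rose 15 genes, beside 3.87% of all genes tested. GINS2 rose most, from 17.1 ± 1.41 to 55.3 ± 1.94 TPM (SD, n = 3), a log2 fold change of 1.69 (SE 0.067, adjusted p = 9.58e-05). TYMS followed with 1.35 (SE 0.072, adjusted p = 0.000214), LIG1 with 1.30 (SE 0.10, adjusted p = 0.000697) and DTL with 1.29 (SE 0.044, adjusted p = 6.86e-05). TIMELESS rose by 1.15 (SE 0.024, adjusted p = 2.13e-05) and SLBP by 0.80 (SE 0.026, adjusted p = 6.21e-05). The smallest rises were those of RPA1 (0.24), POLD2 (0.26), RPA2 (0.35) and GINS4 (0.37). The POLD2 call was lost under 10 of 15 alternative settings, among them without Ctrl replicate 3 (adjusted p = 0.131), Ctrl replicate 2 (0.129) or any shARF replicate (0.102 to 0.134). The GINS4 call was lost under 5 of 15, among them without Ctrl replicate 1 (0.0543), Ctrl replicate 2 (0.0705), shARF replicate 5 (0.081) or shARF replicate 1 (0.0821).

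Under MLN4924 fewer of these genes differed between PC3-shp14ARF and PC3 cells than under DMSO, 19 against 41. The share of all genes tested that was called was lower too, 32.4% against 41.4%. No gene of the set differed by more than 1 in Both vs MLN, where 9.02% of all genes tested did, and 23 were not called. The largest differences upward were those of POLA1 (0.74, SE 0.065, adjusted p = 0.00112), PRIM2 (0.59, SE 0.056, adjusted p = 0.00134) and GINS1 (0.55, SE 0.061, adjusted p = 0.00215), followed by RRM2 (0.48) and TIMELESS (0.43). The 5 that were lower in Both were RFC2 (−0.60, SE 0.061, adjusted p = 0.00172), RPA2 (−0.48, SE 0.073, adjusted p = 0.00547), TIPIN (−0.47, SE 0.073, adjusted p = 0.00595), RPA1 (−0.37) and DBF4 (−0.23). RPA1 and RPA2, subunits of the same complex, were thus both lower, while RPA3 overlapped (0.09). None of the 5 genes of S-phase chromatin and the CRL4 receptor was called, with log2 fold changes from 0.02 to 0.21, though CHAF1B (adjusted p = 0.0323) and UHRF1 (0.0461) were without MLN replicate 5, and DTL (0.0476) and SLBP (0.0239) with median-of-ratios scaling. Median-of-ratios scaling gave 23 higher and 4 lower in place of 14 and 5 (85.2% of the calls higher, in place of 73.7%), and the number higher was 9 without MLN replicate 2, while the number lower was 3 without MLN replicate 2, Both replicate 4 or Both replicate 2. The RPA1 call was lost without MLN replicate 2 (adjusted p = 0.0705) or any Both replicate (0.0526 to 0.0672). The DBF4 call was lost under 9 of 14 alternative settings, among them without any MLN replicate (0.0815 to 0.098), Both replicate 4 (0.103) or Both replicate 2 (0.127).

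**Figure D3:**
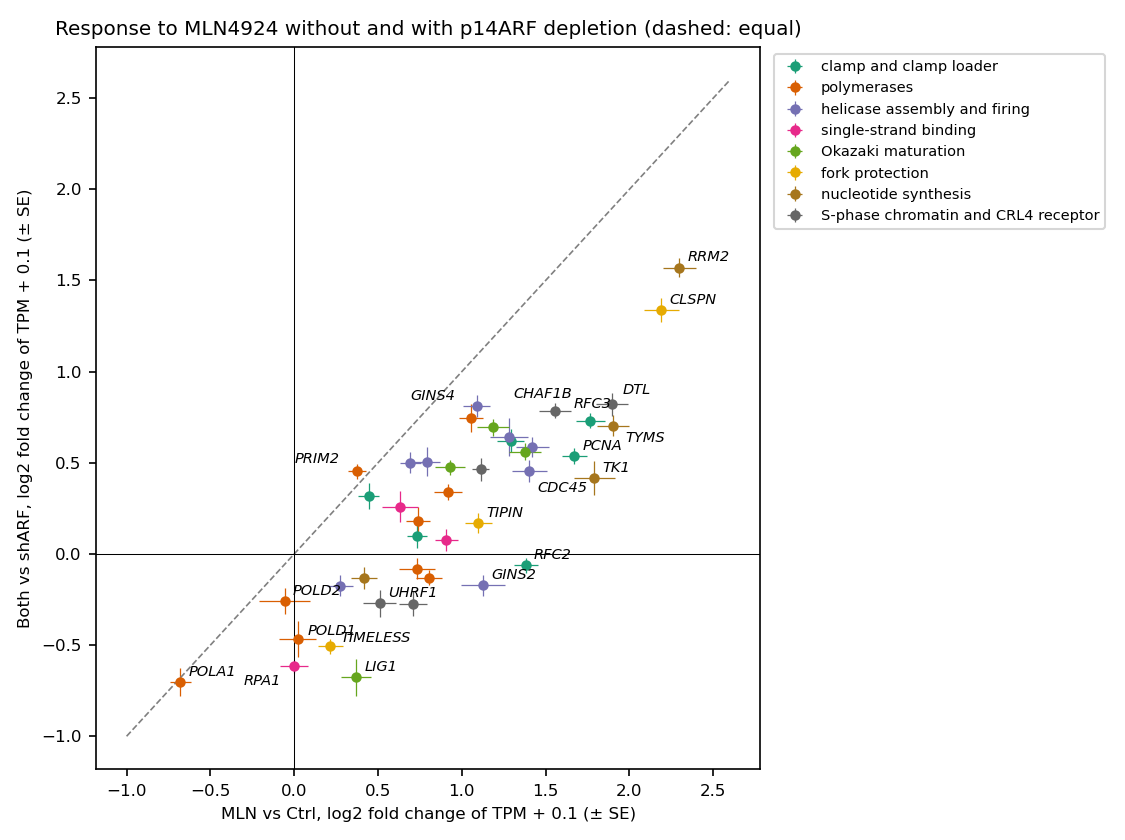
Log2 fold change with MLN4924 in PC3 cells (MLN vs Ctrl, horizontal axis) and in PC3-shp14ARF cells (Both vs shARF, vertical axis) for the 42 genes, coloured by role, with standard errors as bars and a dashed line where both are equal. Of the 42 points 41 lie below the line, as would 11273 of the 19932 genes tested. RRM2 and CLSPN are at the upper right, and LIG1, TIMELESS and RPA1 lie below 0 on the vertical axis.

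Whether MLN4924 acted differently in the 2 lines was tested by the interaction term, (Both − shARF) − (MLN − Ctrl), fitted to the 12 libraries. It was negative and past the threshold for 33 of the 42 genes and positive for none, where 28.3% of all genes tested were called, 17.1% as lower and 11.2% as higher. The median of the 42 genes was −0.70, against −0.09 over all genes tested. For 8 genes it was beyond −1, beside 4.95% of all genes tested, and for 5 with median-of-ratios scaling. RFC2 differed most (−1.44, SE 0.089, adjusted p = 5.89e-07), with its rise in PC3 cells and overlapping libraries in PC3-shp14ARF. TK1 followed with −1.37 (SE 0.16, adjusted p = 7.2e-05), GINS2 with −1.30 (SE 0.15, adjusted p = 6.2e-05), TYMS with −1.20 (SE 0.12, adjusted p = 1.84e-05) and PCNA with −1.13 (SE 0.093, adjusted p = 5.43e-06). DTL, LIG1 and RFC3 had values of −1.07, −1.04 and −1.04. The 9 genes not called were RFC1, POLA1, PRIM2, POLD2, POLD3, GINS1, GINS4, CDC7 and RPA3, of which single left-out libraries brought calls for POLD3 (Both replicate 3, adjusted p = 0.0125, or MLN replicate 1, 0.0325), RPA3 (MLN replicate 5, 0.00991, or Both replicate 4, 0.0217), GINS4 (Ctrl replicate 3, 0.0403, or shARF replicate 3, 0.0408) and CDC7 (Both replicate 3, 0.0414). POLA1 had an interaction of −0.02 with a standard error of 0.11, next to falls of similar size in both populations, and PRIM2, at 0.08 with a standard error of 0.075, was the 1 gene with a positive value. All 4 genes of nucleotide synthesis, all 4 of Okazaki maturation, all 3 of fork protection and all 5 of S-phase chromatin were called, against 5 of 9 polymerases and 5 of 8 genes of helicase assembly and firing. The level before the drug differed too, since 41 of the 42 genes were called higher in shARF vs Ctrl. That comparison and the interaction share the shARF and Ctrl libraries, and the part of the starting level in the interaction was not tested. The drug responses in PC3 and in PC3-shp14ARF, which share no library, went together across the 42 genes (r = 0.83 by Pearson and 0.80 by Spearman), next to 0.77 and 0.74 over all genes tested. Genes are not independent replicates, so these are descriptions.

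**Figure D4:**
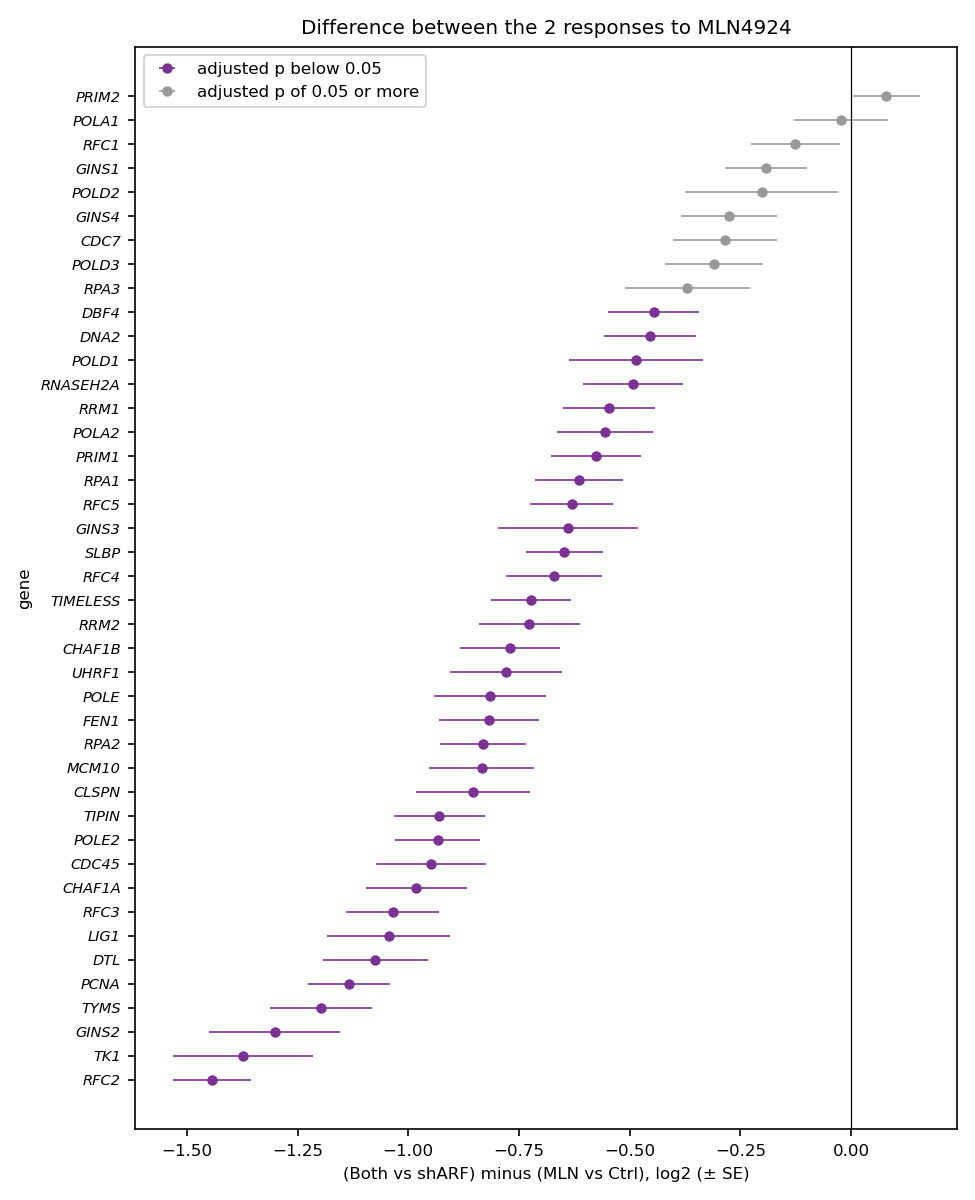
The interaction, (Both vs shARF) minus (MLN vs Ctrl) on the log2 scale (horizontal axis), with its standard error for each of the 42 genes (vertical axis), purple where the adjusted p was below 0.05. RFC2 is at −1.44 and PRIM2, at 0.08, is the only gene to the right of 0.

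Genes of neighbouring steps were counted in the same way from lists that do not overlap with the 42. Of 15 genes of origin licensing, which load the helicase before S phase, 11 rose and 3 fell in MLN vs Ctrl (median 0.75). Of all genes tested, 32.2% were called higher and 29.4% lower there. In Both vs shARF 3 rose and 9 fell (median −0.26), beside 28.3% of all genes tested called higher and 32.8% lower. In shARF vs Ctrl 14 rose and none fell (median 1.08), beside 21% and 20.4%. In Both vs MLN 3 rose and none fell (median 0.15), beside 11.8% and 20.6%. The licensing factors CDT1 and CDC6 rose by 2.41 (SE 0.097, adjusted p = 1.18e-05) and 1.96 (SE 0.089, adjusted p = 1.67e-05) in PC3 and by 0.86 and 0.89 in PC3-shp14ARF. ORC6 of the origin recognition complex rose by 1.71 and 1.00. GMNN, or geminin, the inhibitor of CDT1, rose by 1.50 in PC3 with a log2 fold change of 0.11 (adjusted p = 0.353) in PC3-shp14ARF. The interaction was called in 11 of the 15, all lower (median −1.01), beside 17.1% of all genes tested called lower and 11.2% higher.

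Of 27 other fork factors 15 rose and 5 fell in MLN vs Ctrl (median 0.34), beside 32.2% of all genes tested called higher and 29.4% lower. In Both vs shARF 10 rose and 10 fell (median −0.04), beside 28.3% and 32.8%. In shARF vs Ctrl 22 rose and 1 fell (median 0.65), beside 21% and 20.4%. In Both vs MLN 8 rose and 3 fell (median 0.13), beside 11.8% and 20.6%. The interaction was lower in 18 and higher in none (median −0.41), beside 17.1% lower and 11.2% higher. DSCC1, a subunit of the alternative clamp loader for cohesion, rose by 2.02 in PC3 and 0.70 in PC3-shp14ARF. ASF1B, a histone chaperone, rose by 1.91 and 0.74, the fork protein DONSON by 1.92 and 1.49, and the helicase RECQL4 by 1.61 and 0.71.

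The 30 other genes of nucleotide synthesis, most of them for purine, pyrimidine and folate steps before the deoxynucleotides, held more genes that fell than rose under the drug. In MLN vs Ctrl 7 rose and 16 fell (median −0.22), beside 32.2% of all genes tested called higher and 29.4% lower. In Both vs shARF 6 rose and 23 fell (median −0.59), beside 28.3% and 32.8%. Without the drug 20 rose and 3 fell in shARF vs Ctrl (median 0.31), beside 21% and 20.4%. In Both vs MLN 13 rose and 3 fell (median 0.18), beside 11.8% and 20.6%. The interaction was called higher in 2 and lower in 12 (median −0.19), beside 11.2% and 17.1% of all genes tested. MTHFD2, a mitochondrial enzyme of folate metabolism, rose by 1.48 in PC3 and 1.52 in PC3-shp14ARF. CTPS2, which makes CTP, fell (−1.01 and −0.92), as did the nucleotide kinase CMPK1 (−0.73 and −0.47) and TK2, the mitochondrial thymidine kinase (−1.25 and −1.36). TK2 thus fell where TK1, which acts on the same nucleoside in the cytosol, rose.

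Genes of mitosis moved beside these results. Of 20, 4 rose and 10 fell in MLN vs Ctrl (median −0.26), beside 32.2% of all genes tested called higher and 29.4% lower, and 1 rose and 15 fell in Both vs shARF (median −0.73), beside 28.3% and 32.8%. Without the drug 17 rose and none fell in shARF vs Ctrl (median 0.41), beside 21% and 20.4%. With it 1 rose and 3 fell in Both vs MLN (median −0.09), beside 11.8% and 20.6%. The interaction was lower in 15 and higher in none (median −0.52), beside 17.1% lower and 11.2% higher. Their summed level was 1565 to 1723 TPM in Ctrl, 1409.9 to 1600.3 TPM in MLN, 2161 to 2205 TPM in shARF and 1399.5 to 1467 TPM in Both, so that Ctrl and MLN overlapped. PLK1, a mitotic kinase, fell in PC3 (−2.02) and in PC3-shp14ARF (−2.89). AURKA, another mitotic kinase, fell too (−1.11 and −1.44), as did CDC20, an activator of the anaphase-promoting complex (−1.02 and −2.15). The kinase CDK1 rose, by 1.46 and 0.92. Of 12 reference genes 3 rose and 8 fell in MLN vs Ctrl (median −0.54), none rose and 10 fell in Both vs shARF (median −0.56), 5 rose and none fell in shARF vs Ctrl (median 0.16), 2 rose and 1 fell in Both vs MLN (median 0.01), and 3 were lower in the interaction (median −0.12). The shares of all genes tested to set beside these reference counts are those given above for the genes of mitosis. The part of cell cycle phase and of these other genes in the changes of the fork genes was not tested.

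**Figure D5:**
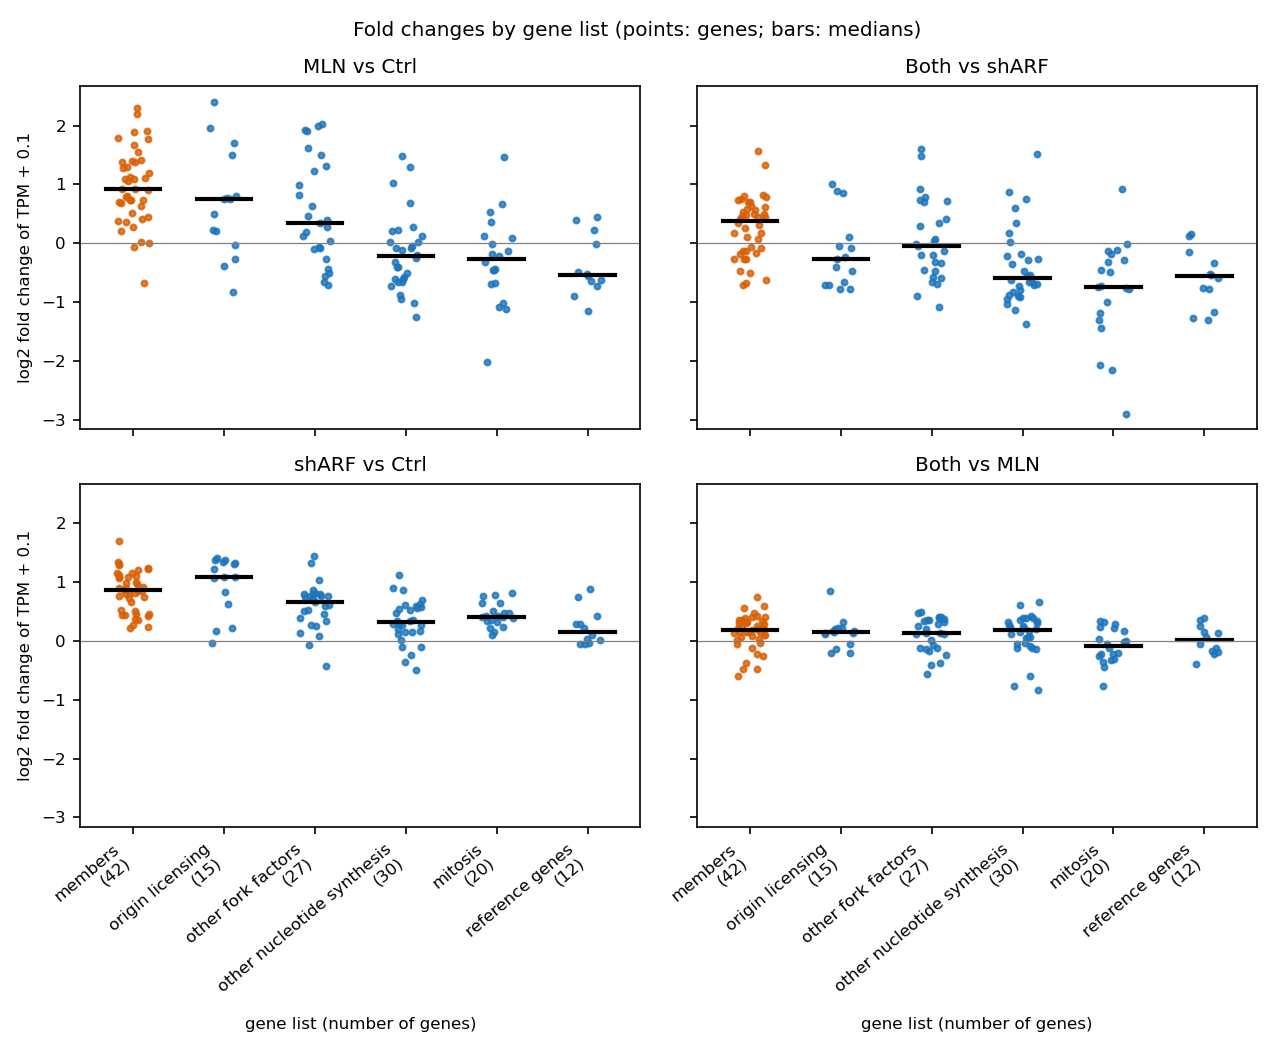
Log2 fold changes (vertical axis) of the genes of 6 lists (horizontal axis) in 4 comparisons, with a point for each gene and a bar for the median of the list. In MLN vs Ctrl the fork and nucleotide genes have the highest median, 0.92, and the reference genes the lowest, −0.54.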

How the data were processed

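RNA-seq of the 4 groups was deposited by the authors as TPM for 43622 genes, without a filter on low values. The authors mapped trimmed reads to hg38 and quantified them on Ensembl GRCh38 annotation release 112 in CLC Genomics Workbench 23.0.5, per the study's methods, although the table holds some older symbols (ADSS for ADSS2), so its gene models may differ from that release and from those used here for overlaps. TPM keeps no read depth, so no counting interval is given, and a share taken by other genes lowers every other value. Strandedness is not given in the sources used here. Groups follow the labels of 4 samples, each matched by name to 3 numbered columns, which were read as replicate libraries although the meaning of the numbers is not given in the sources used here. The labels' design text gives the dose in another unit than the protocol (mM in place of µM) and calls the shRNA line a knockout.

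From the TPM, log2(TPM + 0.1) was fitted for 19932 genes (mean at or above 0.1 TPM) with limma 3.58.1 in R 4.3.3 (lmFit, eBayes with trend, Benjamini-Hochberg over all genes tested). Each pairwise comparison used its own 6 libraries and the interaction all 12. The scale understates the change of low genes. The script was tested on simulated data. The members, the lists of origin licensing, other fork factors, other nucleotide synthesis, E2F and RB family, mitosis and reference genes, and the cell markers were chosen with earlier results of these data known. All 42 members are named, with at most 4 of each role given with SE and adjusted p in a comparison and at most 4 genes of each other list, those with the smallest adjusted p in MLN vs Ctrl. Gene overlaps are from GENCODE 44 and promoters from RefSeq, found for 37 of the 42 genes. Alternatives changed the pseudocount (to 1 or to 0.01), the filter (genes averaging 1 TPM or more, or every gene), the scaling (median of ratios), the libraries (all 12 fitted at once, or one replicate dropped) and the model (no eBayes trend, or the replicate number as a block). Leaving out the mitochondrial genes was chosen after seeing the data. The sources used here do not say that libraries with the same number were prepared together.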

Additional observations from a re-analysis of the deposited data

Results flagged for a closer look

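For 33 of the 42 genes the log2 fold change with MLN4924 in PC3-shp14ARF cells was below that in PC3 cells by the interaction test (limma, adjusted p below 0.05, all 12 libraries), beside 28.3% of all genes tested called in either direction. In the clamp and its loader the difference was −1.13 for PCNA, −1.44 for RFC2, −1.04 for RFC3, −0.67 for RFC4 and −0.63 for RFC5. In the polymerases it was −0.56 for POLA2, −0.58 for PRIM1, −0.48 for POLD1, −0.82 for POLE and −0.93 for POLE2. The POLD1 call was lost under 8 of 20 alternative settings, among them without MLN replicate 2 (adjusted p = 0.0682), MLN replicate 5 (0.0757), Both replicate 3 (0.0754), Ctrl replicate 2 (0.0749) or shARF replicate 5 (0.0783).

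In helicase assembly and firing the difference was −0.95 for CDC45, −1.30 for GINS2, −0.64 for GINS3, −0.83 for MCM10 and −0.45 for DBF4, and in single-strand binding −0.61 for RPA1 and −0.83 for RPA2. Among the genes of Okazaki fragments it was −0.82 for FEN1, −1.04 for LIG1, −0.45 for DNA2 and −0.49 for RNASEH2A, and in fork protection −0.93 for TIPIN, −0.72 for TIMELESS and −0.85 for CLSPN. In nucleotide synthesis it was −0.55 for RRM1, −0.73 for RRM2, −1.20 for TYMS and −1.37 for TK1, and in S-phase chromatin and the CRL4 receptor −1.07 for DTL, −0.78 for UHRF1, −0.98 for CHAF1A, −0.77 for CHAF1B and −0.65 for SLBP.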

How the results depend on the processing

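The counts of genes that rose in MLN vs Ctrl, rose in Both vs shARF or were lower in the interaction stayed within 1.5 times the reported ones under every alternative tried, between 29 and 38, 23 and 28, and 30 and 34. With median-of-ratios scaling the number lower in Both vs shARF was 6, the number higher in Both vs MLN 23 and the number beyond −1 in the interaction 5, with medians of the 42 genes of 0.47 in Both vs shARF, 0.28 in Both vs MLN and −0.60 in the interaction. The number lower in Both vs shARF was 7 with 12 libraries in one fit and 7 without mitochondrial genes, where the medians were 0.44 in Both vs shARF and −0.64 in the interaction. The cause was not tested. Some small log2 fold changes, none of them called, changed sign. With median-of-ratios scaling those of RFC2 and POLE in Both vs shARF became 0.033 and 0.014, those of PCNA and CLSPN in Both vs MLN 0.042 and 0.048 and that of POLA1 in the interaction 0.075. Without mitochondrial genes RFC2 in Both vs shARF became 0.00097, RPA1 in MLN vs Ctrl 0.0055 and POLA1 in the interaction 0.034.

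With a replicate block on the numbers that groups share, no gene of the 42 was called in shARF vs Ctrl (0 higher, 0 higher by more than 1; limma called 0 over all genes), while 38 of the 42 and 7757 of all genes had an unadjusted p below 0.05. In the pairwise fits of 6 libraries the block leaves little from which to estimate the spread, and why the calls were lost was not tested. Under the block 29 rose and 1 fell in MLN vs Ctrl and 30 were lower in the interaction, where POLA1 became 0.16, and POLD1 in MLN vs Ctrl became −0.029. Deviations of same-numbered libraries from their group means correlated at r between −0.0457 and 0.0222, so the numbers were not taken as pairs. No paired analysis was possible for Both vs shARF and Both vs MLN because these groups share only 1 number each.

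When replicates were dropped one by one, the median of the 42 genes was 0.86 to 1.00 in MLN vs Ctrl and 0.84 to 0.91 in shARF vs Ctrl, with the highest value of each without Ctrl replicate 3. The number lower in Both vs shARF was 6 to 8, and in Both vs MLN 9 to 18 were higher and 3 to 4 lower. Uncalled log2 fold changes crossed 0 in these fits. In MLN vs Ctrl they ranged from −0.060 to 0.11 for POLD1, −0.17 to 0.10 for POLD2 and −0.063 to 0.083 for RPA1. In Both vs MLN they ranged from −0.096 to 0.17 for POLD2, −0.024 to 0.16 for RPA3, −0.068 to 0.092 for RNASEH2A, −0.10 to 0.051 for CLSPN and −0.027 to 0.10 for CHAF1A, and in the interaction from −0.099 to 0.024 for POLA1. TPM values give no depth, so how far reads limit the lower genes, such as MCM10 and CLSPN, is unknown.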

Other observations

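The E2F and RB family, whose members bind promoters of replication genes, was counted beside the fork genes. Of 13 genes, 6 rose and 5 fell in MLN vs Ctrl (median −0.08), beside 32.2% of all genes tested called higher and 29.4% lower. In Both vs shARF 6 rose and 6 fell (median 0.12), beside 28.3% and 32.8%. In shARF vs Ctrl 8 rose and 1 fell (median 0.21), beside 21% and 20.4%. In Both vs MLN 1 rose and none fell (median 0.00), beside 11.8% and 20.6%. The interaction was higher in 1 and lower in 6 (median −0.25), beside 11.2% and 17.1%. The activators E2F1 and E2F2 rose with the drug in PC3, by 2.25 and 3.10, and in PC3-shp14ARF, by 1.04 and 1.32 (limma). E2F1 was at 31.2 ± 3.93 TPM in Ctrl, 149 ± 12.7 TPM in MLN, 72.4 ± 7.02 TPM in shARF and 149 ± 13.9 TPM in Both (SD, n = 3), so that MLN and Both differed by less than their spread, and its interaction was −1.21, SE 0.15, adjusted p = 0.000118. E2F6, a repressor, rose as well (0.99 and 0.62). E2F5, which works with the pocket proteins, fell in both populations (−1.60 and −0.85) and was the 1 gene of this list that was higher in Both than in MLN (1.05).

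Subunits of the same complex did not all have their highest level in the same group. In the fork protection dimer every shARF library of TIMELESS and every MLN library of TIPIN lay above those of the other groups. In the clamp loader the MLN libraries of RFC2 lay above all others (110.3 to 122 TPM, against 75.9 to 81.7 TPM in Both), while those of RFC3 did not (59.9 to 61.2 TPM, against 65.9 to 70.9 TPM in Both). In ribonucleotide reductase the Both libraries of RRM2 lay above all others, while those of RRM1 lay below shARF by a difference that was not called (−0.13, adjusted p = 0.11).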
